A study of Homo sapiens with 14 samples.

Results

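MYC encodes a transcription factor that drives cell growth and division and is one of the best known proto-oncogenes. It lies in a wide part of the long arm of human chromosome 8 that is poor in protein-coding genes. Beside it lies PVT1, a long non-coding RNA gene whose promoter and introns hold elements that act on MYC. Around them lie other non-coding RNA genes (the CASC and CCAT genes, PCAT1, PRNCR1, CCDC26) found through cancer. GATA1 is a transcription factor with zinc fingers, studied mostly in cells of the red blood lineage. HDAC5 is a class IIa member of the histone deacetylases, a wider family named for the removal of acetyl groups from histones. The results below describe the deposited GATA1 peaks in the 5 Mb around MYC and PVT1, chromosome 8, 126000000 to 131000000 (hg38), and the RNA of the genes there. Peaks were taken by the position of their summit, with no use of their height. The summits just inside the window lay at 126010767 and 130999721 in the shHDAC5 list and at 126194714 and 130795891 in the shControl list. The window held 573 of 371139 peaks in all, which are 493 of 249675 peaks in the list labelled shHDAC5 and 80 of 121464 in the list labelled shControl.

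GATA1 was immunoprecipitated from PANC-1, a human pancreatic cancer cell line, at day 3 after a short hairpin against HDAC5 (shHDAC5, labelled as HDAC5 knockdown) or a control hairpin (shControl, labelled WT), with 2 immunoprecipitations and 2 inputs per condition and 1 peak list per condition. RNA was counted in 6 libraries labelled BxPC-3, another human pancreatic cancer line, also at day 3, 3 with shHDAC5 and 3 with shControl. Peaks and RNA are therefore labelled as different cell lines, and the labels name neither the hairpin sequences nor separate cultures. With 1 list per condition there was no spread between replicates for peaks, so differences between lists were not tested, and the intervals given for peaks are 95% exact ones that cover counting error only.

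The names inside the lists and the RNA of the hairpin's target both went against the labels. Peaks in the list tied by its label to shHDAC5 are named GATA1-NC-IP, a name that the titles of the shControl immunoprecipitations hold. Those in the list tied to shControl are named GATA1-SAHA-IP, and no sample title holds SAHA. The lists are called the shHDAC5 list and the shControl list after their labels, and which cells each one represents cannot be told apart from these files. HDAC5 RNA was 164 ± 4.44 CPM in the libraries labelled shHDAC5 and 94.9 ± 2.99 CPM in those labelled shControl (SD, n = 3 each), 0.79 on the log2 scale (SE 0.0358, adjusted p = 3.95e-40 in edgeR's quasi-likelihood test, where SE is the standard error). GATA1 RNA was 2.85 ± 0.438 CPM in the libraries labelled shHDAC5 and 0.344 ± 0.0930 CPM in those labelled shControl. Of 6 epithelial marker genes, KRT19, EPCAM and CDH1 were under 3 CPM in all 6 libraries, although the label names an epithelial cancer line, and the 6 together summed to between 1327 and 1395 CPM in the libraries labelled shHDAC5 and between 1477 and 1507 CPM in those labelled shControl. Within that sum KRT7 was at 25.3 ± 0.445 CPM in the libraries labelled shHDAC5 and 371 ± 9.72 CPM in those labelled shControl, and KRT8 at 1010 ± 25.6 CPM in the libraries labelled shHDAC5 and 717 ± 11.9 CPM in those labelled shControl. SMAD4, a gene known to be deleted in BxPC-3, was at 46.8 ± 0.789 CPM in the libraries labelled shHDAC5 and 49.6 ± 2.59 CPM in those labelled shControl. Of the marker genes of other cell types, the 4 erythroid ones summed to between 5.04 and 7.21 CPM in the libraries labelled shHDAC5 and to between 0.0699 and 0.322 CPM in those labelled shControl. The 5 fibroblast markers summed to between 84.3 and 89.4 CPM in the libraries labelled shHDAC5 and between 120 and 129 CPM in those labelled shControl, with all 3 tested called lower, LUM at 0 in all 6 libraries, and PDGFRB at 6.59 CPM in the libraries labelled shHDAC5 and 29.6 CPM in those labelled shControl. The 4 leukocyte markers summed to between 5.14 and 6.26 CPM in the libraries labelled shHDAC5 and between 3.20 and 4.19 CPM in those labelled shControl, and the 3 endothelial ones to between 3.13 and 4.01 CPM in the libraries labelled shHDAC5 and between 1.03 and 1.48 CPM in those labelled shControl. Of these, CD14 and VWF were called higher. Over all 19181 genes tested, 44.8% were called higher and 39.9% lower, so a call as such sets no marker apart. The part of these marker lists in the RNA results was not tested.

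When all listed peaks were counted, the MYC and PVT1 window held far more in the shHDAC5 list than in the shControl list. Its 493 peaks in the shHDAC5 list were 5.48% of the 8997 on chromosome 8 (interval 5.02 to 5.97%), in 3.45% of the chromosome's annotated length. Its 80 peaks in the shControl list were 2.67% of 2992 (2.13 to 3.32%). Counted per length, the shHDAC5 list had 98.6 peaks per Mb in the window (90.1 to 108) and 60.7 in the rest of chromosome 8 (59.4 to 62.0), a ratio of 1.62 (1.48 to 1.78). The shControl list had 16 peaks per Mb in the window (12.7 to 19.9) and 20.8 in the rest (20 to 21.6), a ratio of 0.770 (0.608 to 0.961). Between the lists, the window held 6.16 times as many peaks in the shHDAC5 list as in the shControl list. In the rest of chromosome 8 it was 2.92 times. These ratios rest mostly on peaks of low fold enrichment (the authors' value per peak). At a fold of at least 3, the window held 44 peaks in the shHDAC5 list and 32 in the shControl list. The rest then held 418 in the shHDAC5 list and 609 in the shControl list. At a q of at most 0.05 the window held 4 and 3, and the rest 13 and 61, in the same order.

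How dense the window looked depended on what it was set against. The part of chromosome 8 below 46 Mb, 31.7% of the length, held 4.91% of the chromosome's peaks in the shHDAC5 list and 2.51% in the shControl list. Above 46 Mb the rest of chromosome 8 had 85.7 peaks per Mb in the shHDAC5 list, and the ratio of the window to it was 1.15. For the shControl list that part had 30.2 peaks per Mb and the ratio was 0.531. The end of the chromosome from 141000001 on, outside the full tiles, held 1068 of the 2992 shControl peaks, or 263 per Mb, and 394 of the 8997 shHDAC5 peaks. Against the full tiles alone the ratio was 1.64 in the shHDAC5 list and 1.17 in the shControl list. Against the 10 Mb on either side the ratio was 1.07 in the shHDAC5 list, with 91.9 peaks per Mb there (87.7 to 96.2), and 0.634 in the shControl list, with 25.2 (23.1 to 27.6). Among the 28 full tiles of 5 Mb, the window was the tile with rank 2 in the shHDAC5 list, where counts lay between 18 and 535 with a median of 406. In the shControl list it had rank 10, with counts between 3 and 232 and a median of 70. The next tile up the chromosome held 535 in the shHDAC5 list and 127 in the shControl list. The one before it held 459 in the shHDAC5 list and 106 in the shControl list.

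**Figure D1:**
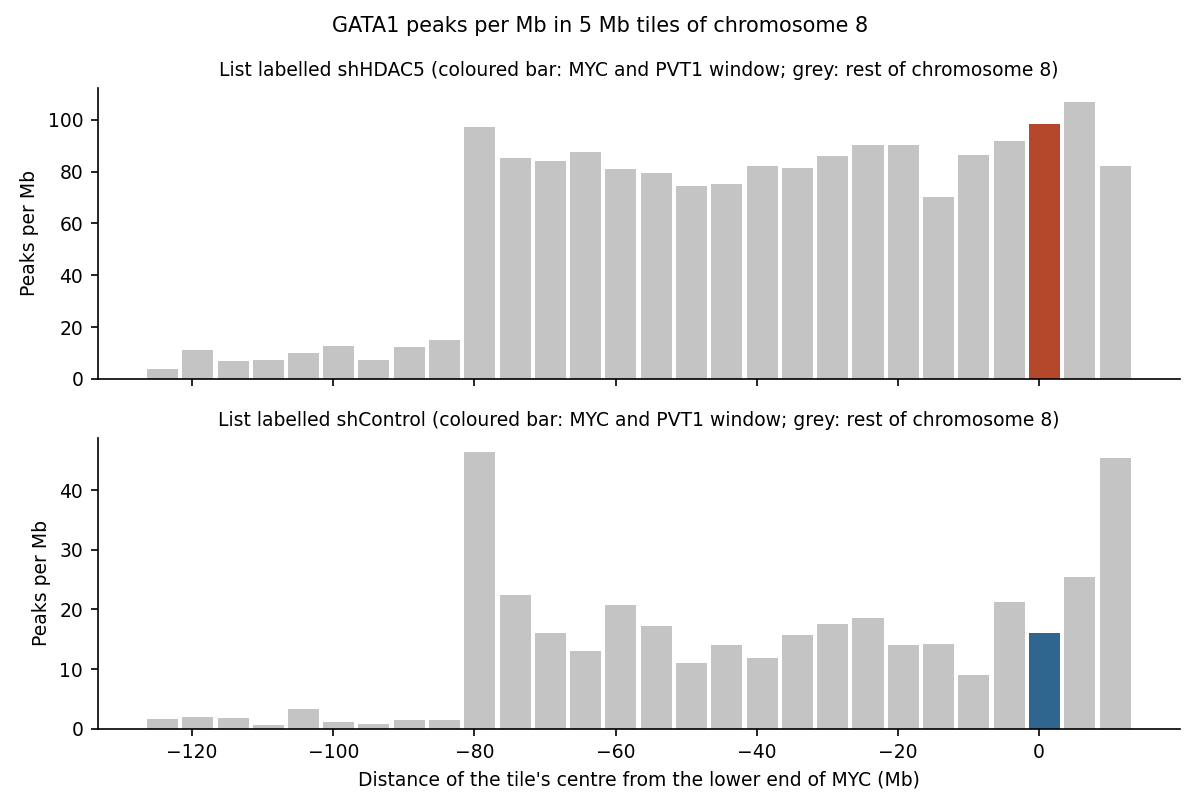
Peaks per Mb (vertical axis) in the 28 full 5 Mb tiles of chromosome 8, placed by the distance of their centres from the lower end of MYC in Mb (horizontal axis), in the shHDAC5 list (top) and the shControl list (bottom). The coloured bar is the MYC and PVT1 window, with 98.6 peaks per Mb in the shHDAC5 list and 16 in the shControl list, and the tiles far below it hold few peaks in both lists.

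Within the window the lists differed in the number and spacing of their peaks. In steps of 1 Mb from its lower end, the shHDAC5 list held 86, 125, 89, 82 and 111 peaks and the shControl list 9, 26, 18, 7 and 20. In the shHDAC5 list all 50 bins of 100 kb held a peak, while 21 of the 50 held none in the shControl list. The correlation of the lists across these 50 bins was weak (Pearson r = 0.10, Spearman rho = 0.12), and neighbouring bins and both lists share the same stretch of genome. Empty bins, gaps and this correlation depend on the number of peaks, 493 in the shHDAC5 list and 80 in the shControl list. Whether placement differed apart from number was not tested. The median gap between neighbouring summits was 6.10 kb in the shHDAC5 list and 17.3 kb in the shControl list. The longest gap was 88.8 kb in the shHDAC5 list, from 129173144 to 129261912, over LINC00977. It was 697 kb in the shControl list, from 128897202 to 129593847, reaching into CCDC26.

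Among 6 stretches of the window bounded by its genes, the lists came closest in number over the gene pair itself. Between the lower end of MYC and the upper end of PVT1 (127735434 to 128101256, 365.8 kb) the shHDAC5 list had 34 peaks, or 92.9 per Mb (64.4 to 130), and the shControl list 27, or 73.8 per Mb (48.6 to 107). These were 6.90% of the window's peaks in the shHDAC5 list and 33.8% in the shControl list, in 7.32% of its length. The ratio of the lists was 1.26 there, against 13.1 between LRATD2 and MYC and 11.5 between PVT1 and GSDMC. The 1183 kb from LRATD2 to MYC, poor in coding genes, hold the CASC and CCAT genes. There the shHDAC5 list had 144 peaks (122 per Mb, 103 to 143) and the shControl list 11 (9.30 per Mb, 4.64 to 16.6). From PVT1 to GSDMC, 1604 kb, the counts were 138 (86.0 per Mb, 72.3 to 102) in the shHDAC5 list and 12 (7.48 per Mb, 3.87 to 13.1) in the shControl list. The stretch from GSDMC through ASAP1 was between these, with 65 peaks (88.0 per Mb) in the shHDAC5 list and 18 (24.4 per Mb, 14.5 to 38.5) in the shControl list. The shControl density over MYC and PVT1 thus lay above the intervals of its other 5 stretches, while the shHDAC5 density there lay within the range of its other stretches.

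Counts as high as those over MYC and PVT1 were also found elsewhere on chromosome 8. When the chromosome was laid out in 396 stretches of the same length, the median was 26 peaks in the shHDAC5 list and 4 in the shControl list. Besides the MYC and PVT1 stretch, 102 stretches held at least its 34 peaks in the shHDAC5 list and 17 held at least its 27 peaks in the shControl list. The highest count was 65 in the shHDAC5 list and 151 in the shControl list. The shControl peaks crowded in places: the chromosome's end from 141000001 on held 1068 of its 2992, and 46000001 to 47000000 held 119. Each 1 Mb bin from 141000001 to 145000000 held between 216 and 292 shControl peaks, well above the 73.8 per Mb over MYC and PVT1. Stretches in these parts are thus likely to be among the 17. How many of the 17 lay there was not counted, so 17 does not tell how common such counts were elsewhere. In the 100 kb bins the lists were closer still in places, with 8 peaks in the shHDAC5 list and 10 in the shControl list from 130000001 to 130100000, around the upper end of CYRIB. The boundaries of the 6 stretches were chosen after the peaks had been seen.

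**Figure D2:**
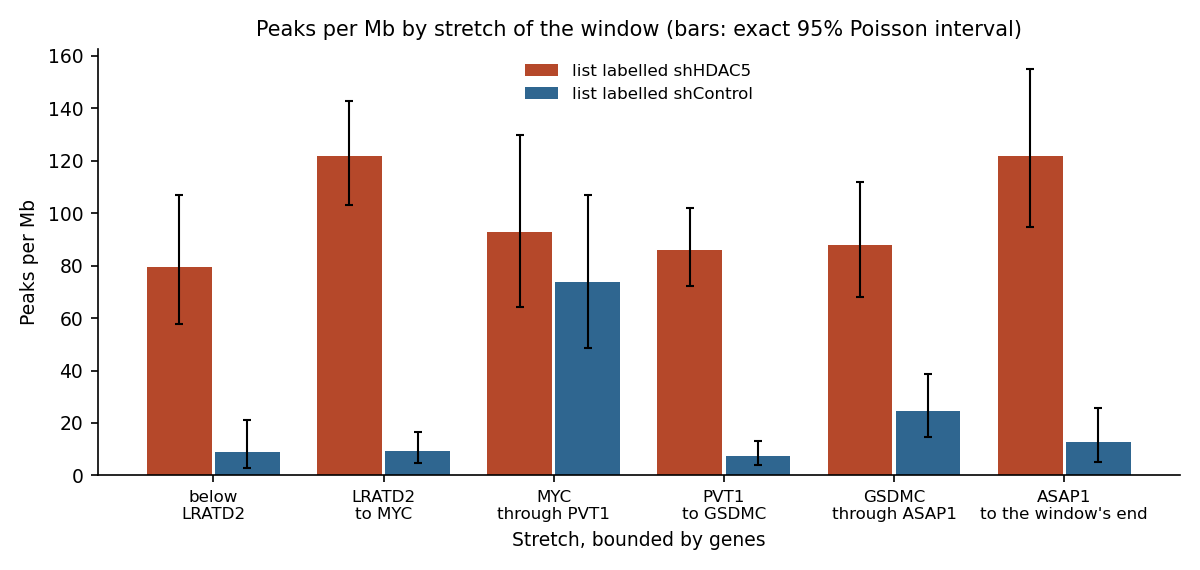
Peaks per Mb (vertical axis) in 6 stretches of the window bounded by its genes (horizontal axis), for the shHDAC5 list (left bar of each pair) and the shControl list (right bar), with 95% exact Poisson intervals. The bars are of like height over MYC and PVT1, at 92.9 peaks per Mb in the shHDAC5 list and 73.8 in the shControl list. They are far apart in the stretches on either side, which are poor in coding genes.

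At MYC (7518 bp, 127735434 to 127742951) each list placed 1 peak at or in the gene. The shHDAC5 list had a peak at 127735268 to 127735636 with its summit 15 bp outside the lower end of MYC, at a fold enrichment of 2.65 and a −log10 q of 0.0766. Fold enrichment and q are the authors' values for each peak, and the fold is over the peak caller's own background. The shControl list had no summit within 1 kb of that end. Its nearest peak, at 127737057 to 127738454, had its summit 2623 bp inside the gene, a fold of 3.78 and a −log10 q of 0.991, and at 1398 bp was the widest of its 80 peaks in the window. Neither peak reached a q of 0.05. The annotation used gives no strand, so ends are called lower and upper by coordinate, and exons and introns were not assigned.

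In PVT1 (127794524 to 128101256) the span held 30 peaks in the shHDAC5 list and 22 in the shControl list, or 9.78 per 100 kb in the shHDAC5 list and 7.17 in the shControl list. Near its lower end the shControl list had a peak at 127794060 to 127794411, 265 bp outside the gene, with a fold of 4.16 and a −log10 q of 1.69. The nearest summit of the shHDAC5 list was 10389 bp from that end, in a peak at 127783975 to 127784264 with a fold of 3.18. At the upper end the shControl list had a peak at 128098085 to 128098528 with a fold of 3.90, 2954 bp inside the gene, and the shHDAC5 list one of fold 2.37, 5776 bp inside. Inside PVT1 the shHDAC5 list had the peak with fold rank 3 in the window, at 128048984 to 128049727, with a fold of 4.39 and a −log10 q of 2.12. Its summit lies in MIR1207, a microRNA gene within PVT1.

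The gene spans on either side differed in how far the lists were apart. Over the whole window the shHDAC5 list held 6.16 times as many peaks as the shControl list. At that ratio a span with few shHDAC5 peaks can hold none of the shControl list. CASC8 and CASC21, overlapping non-coding RNA genes known from cancer susceptibility studies, held 26 and 24 peaks in the shHDAC5 list and 4 each in the shControl list. Peaks in their overlap count for both genes. CASC11, the non-coding RNA gene just below MYC, held 7 peaks in the shHDAC5 list and none in the shControl list. CCDC26, a non-coding RNA gene known from leukaemia, held 33 in the shHDAC5 list and 2 in the shControl list, and ADCY8, an adenylyl cyclase gene that runs past the window's end, held 29 in the shHDAC5 list and 2 in the shControl list. ASAP1, which codes for an activator of ARF GTPases, held 37 in the shHDAC5 list and 5 in the shControl list. CYRIB, which codes for a RAC1-binding protein, was closer, with 15 peaks in the shHDAC5 list and 7 in the shControl list. GSDMC, a gasdermin gene, held 5 in the shHDAC5 list and none in the shControl list, and LRATD2 none in the shHDAC5 list and 2 in the shControl list. Of 64 annotated genes, 35 had no summit in their span in the shHDAC5 list, 50 had none in the shControl list and 32 had none in either.

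Seen against the annotation, the shHDAC5 peaks were spread much as the bases of the window are. Any gene span held 54.6% of its window summits (50.1 to 59.0%), against 52.5% of the window's bases, and 4.87% of them (3.14 to 7.16%) lay within 1 kb of a gene end, against 4.06% of the bases. The shControl summits lay near gene ends more often than the bases do: 11 of 80, 13.8% (7.07 to 23.3%), were within 1 kb of an end. At the ends of protein-coding genes the shares were 1.22% (0.448 to 2.63%) in the shHDAC5 list and 6.25% (2.06 to 14.0%) in the shControl list, against 0.520% of the bases. In the rest of chromosome 8 the shares near coding ends were 1.98% of summits in the shHDAC5 list and 11.0% in the shControl list, against 1.88% of the bases. The window is richer in non-coding RNA genes than the rest, which hold 36.6% of its bases and 17.8% of the others, and their spans took 39.1% of its summits in the shHDAC5 list and 45% (33.8 to 56.5%) in the shControl list.

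Most window peaks were weak by the authors' own q. A q of at most 0.05 was reached by 4 of 493 peaks in the shHDAC5 list (0.811%, 0.221 to 2.06%), against 0.153% in the rest of chromosome 8, and by 3 of 80 in the shControl list (3.75%, 0.780 to 10.6%), against 2.09%. A −log10 q of 0, a q of 1, was listed for 71.8% of the window's peaks in the shHDAC5 list and 42.5% in the shControl list, against 84.9% and 74.1% in the rest. The 4 peaks of the shHDAC5 list under that q were 2 near ASAP1, at 130042204 to 130042626 (fold 4.86, −log10 q 3.68, 9.69 kb from the gene) and 130050392 to 130050871 (fold 4.53, −log10 q 2.09, 1.48 kb from it), the one in PVT1 over MIR1207, and one at 129139370 to 129140031 (fold 4.13, −log10 q 1.32), 37.3 kb from its nearest gene, LOC124902023. The 3 of the shControl list were 2 in CYRIB, at 130015648 to 130016706 (fold 5.46, −log10 q 3.26) and 129939365 to 129939779 (fold 4.63, −log10 q 2.54), and the one beside the lower end of PVT1. Of the 10 peaks with the highest fold in each list, 4 in the shHDAC5 list and 7 in the shControl list lay in a gene span. After the 4 named, the others of the shHDAC5 list had folds between 3.66 and 3.86, among them a peak in CASC21 at 127251974 to 127252409 (3.75) and one in CASC8 at 127435653 to 127436645 (3.70). Those of the shControl list had folds between 3.53 and 3.90, among them peaks in MYC, in PVT1 at 127986275 to 127986609 (3.63), in CASC21 and CASC8 at 127382926 to 127383358 (3.78) and in ASAP1 at 130074695 to 130074982 (3.78).

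Fold enrichment ran higher in the window than in the rest of chromosome 8 in both lists, but not higher than in the 15 Mb just below it. The median was 2.42 in the window and 2.15 in the rest in the shHDAC5 list, and 2.80 and 2.67 in the shControl list. A fold of at least 3 was reached by 44 of 493 window peaks (8.92%, 6.56 to 11.8%), against 4.92% of the rest, in the shHDAC5 list. In the shControl list it was reached by 32 of 80 (40%, 29.2 to 51.6%), against 20.9% of the rest. The 15 Mb below the window had a median of 2.45 and 12.5% of peaks at a fold of at least 3 in the shHDAC5 list, and a median of 2.93 and 41.4% in the shControl list. At that threshold the window was denser than the rest of chromosome 8 in both lists, by 2.95 times in the shHDAC5 list and 1.47 times in the shControl list, which turns the direction of the shControl ratio, as did a q of at most 0.05 (1.38). Peak width differed less, with a median of 333 bp in the window and 299 bp in the rest in the shHDAC5 list, and of 330 bp in both parts in the shControl list.

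**Figure D3:**
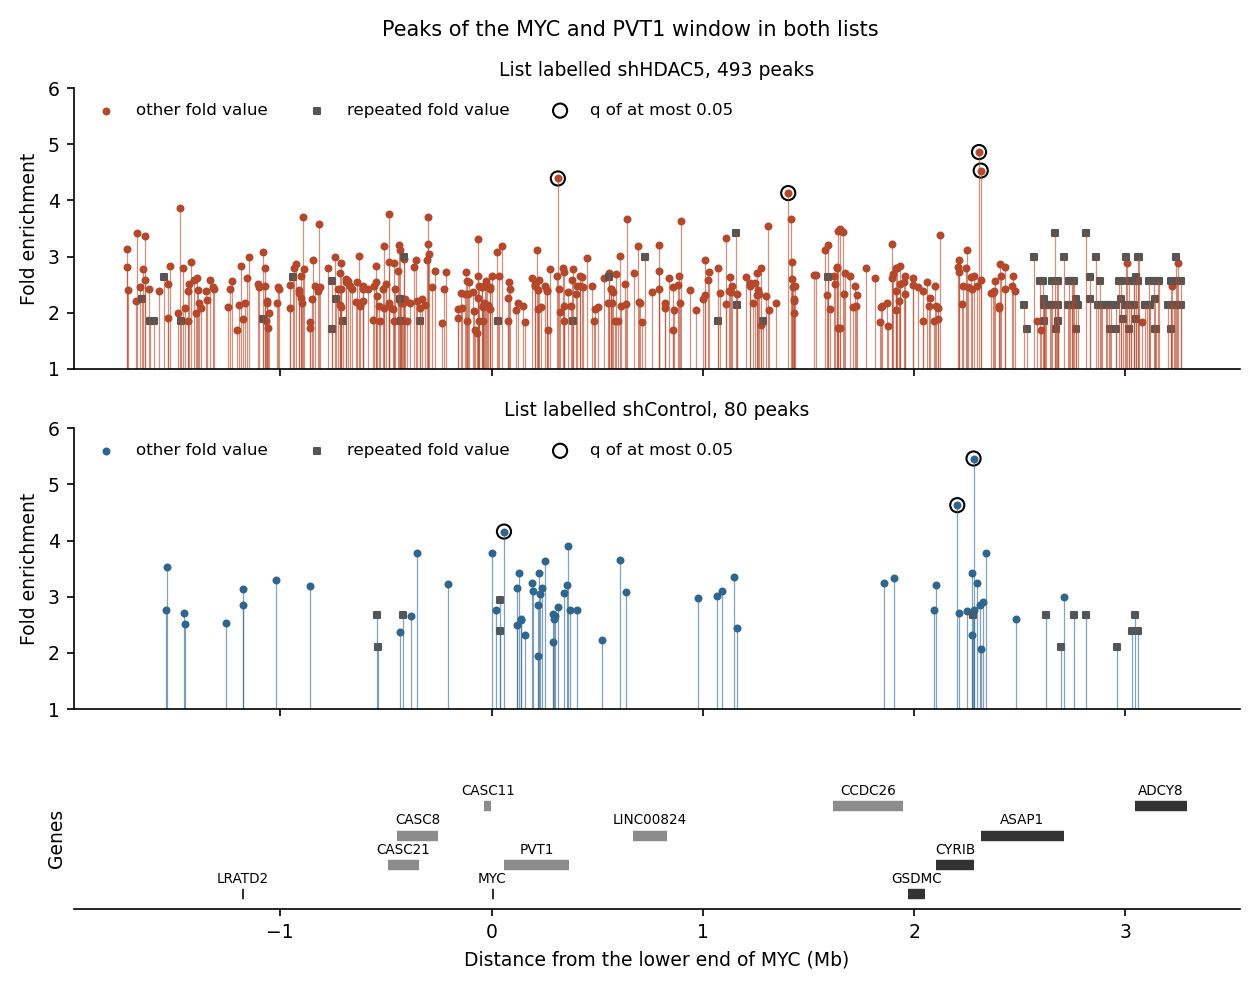
Fold enrichment (vertical axis) of each peak of the window in the shHDAC5 list (top, 493 peaks) and the shControl list (middle, 80 peaks), by distance of the summit from the lower end of MYC in Mb (horizontal axis), with gene spans below, coding genes darker. Circles mark the 4 and 3 peaks with a q of at most 0.05; dark squares mark peaks whose fold is one of the values repeated many times over chromosome 8, which crowd at the right end of both panels.

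The fold values of the shHDAC5 list divided the window at a place inside ASAP1, and those of the shControl list differed across it in the same direction. Over most of chromosome 8 the same few fold values came back again and again: 9 values between 1.71 and 3.42 in the shHDAC5 list, and 6 between 2.11 and 3.51 in the shControl list, were each carried by at least 100 peaks outside the window. These repeated values made up 77.4% of the peaks in the rest of chromosome 8 in the shHDAC5 list and 75.7% in the shControl list. In the window they made up 22.3% (18.7 to 26.2%) in the shHDAC5 list and 17.5% (9.91 to 27.6%) in the shControl list. The values were picked by their number outside the window, so that rule in part sets this contrast with the rest. The place that best parted repeated from other values in the shHDAC5 list lay between the summits at 130210898 and 130253442, 42.5 kb apart and both within ASAP1. Below it 25 of 402 peaks carried a repeated value (6.22%, 4.06 to 9.04%), and above it 85 of 91 (93.4%, 86.2 to 97.5%). The shControl list was not used to find this place, and there 6 of 71 peaks below it (8.45%, 3.16 to 17.5%) and 8 of 9 above it (88.9%, 51.8 to 99.7%) carried one. With 9 peaks above it, the shControl list is too sparse to place the division itself.

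This division was the end of a longer segment rather than of the window. In the 15 Mb below the window 6.36% of peaks carried a repeated value in the shHDAC5 list and 0.901% in the shControl list. In the 5 Mb above it the shares were 95.5% in the shHDAC5 list and 89.8% in the shControl list. On the same fold values, a fold of at least 3 was reached by 42 of the 402 peaks below it and 2 of the 91 above it in the shHDAC5 list, and by 32 of 71 below and none of 9 above in the shControl list. The last such peak below it had its summit at 130050628 in the shHDAC5 list and at 130074775 in the shControl list, so these folds do not place the division. All 4 and all 3 peaks with a q of at most 0.05 also lay below it. The number of peaks per Mb did not fall there in the shHDAC5 list, at 94.5 below (85.5 to 104) and 122 above (98.1 to 150), and in the shControl list it was 16.7 below (13.0 to 21.1) and 12.1 above (5.51 to 22.9). As background, MACS2, which the submitters' notes name, can set a summit's reads against a local or a genome-wide background, whichever is higher, and equal read numbers over one genome-wide background give equal folds. Whether the background differed along the chromosome in these libraries was not tested. The rule for repeated values and the division were chosen after the folds had been seen.

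**Figure D4:**
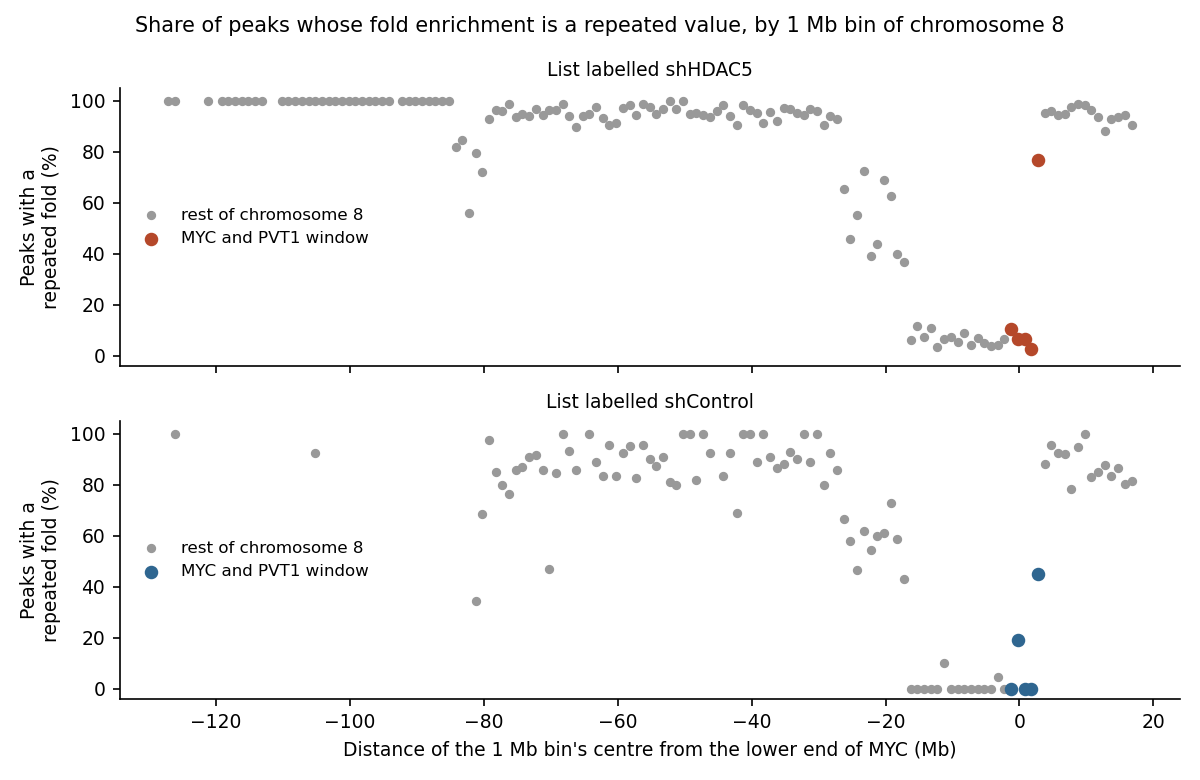
Share of peaks with a repeated fold value, in percent (vertical axis), in each 1 Mb bin of chromosome 8 with at least 5 peaks, by distance of its centre from the lower end of MYC in Mb (horizontal axis), in the shHDAC5 list (top) and the shControl list (bottom). The first 4 bins of the window lie between 2.44% and 10.5% in the shHDAC5 list and between 0% and 19.2% in the shControl list, and the fifth, which holds ASAP1, stands at 76.6% in the shHDAC5 list and 45% in the shControl list.

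Few window peaks were shared between the lists. With an overlap of at least 1 bp, 7 of 493 peaks of the shHDAC5 list (1.42%, 0.573 to 2.90%) and 7 of 80 of the shControl list (8.75%, 3.59 to 17.2%) met a peak of the other list. A peak of mean width (371 bp in the shHDAC5 list, 389 bp in the shControl list) would meet the other list at 1.21% of the window's positions for the shHDAC5 list and 7.45% for the shControl list, and both values lay within the intervals of the observed shares. In the rest of chromosome 8 the observed shares were 3.37% of the shHDAC5 list (3.00 to 3.78%) and 9.96% of the shControl list (8.89 to 11.1%), against 1.5% of positions for the shHDAC5 list and 4.46% for the shControl list. The 7 pairs shared between 38 and 333 bp, with a median of 221 bp, and their summits lay between 1 and 785 bp apart. The fold was higher in the shHDAC5 list in 3 pairs and in the shControl list in 4.

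The shared peaks lay in PVT1 (2 pairs), CYRIB, ADCY8, the overlap of CASC21 and CASC8, and outside genes (2 pairs). In CYRIB the shHDAC5 peak at 130016407 to 130016821 had a fold of 2.65, and the shControl peak it met, the highest of its list in the window, 5.46. The MIR1207 peak in PVT1, with a fold of 4.39 in the shHDAC5 list, shared 38 bp with a shControl peak of fold 2.82 at 128049690 to 128050100. A second pair in PVT1 had folds of 2.40 in the shHDAC5 list (127954341 to 127954601) and 2.85 in the shControl list (127954381 to 127954787). Over CASC21 and CASC8 the folds were 3.11 in the shHDAC5 list (127302428 to 127302711) and 2.37 in the shControl list (127302242 to 127302499), and in ADCY8 they were 2.99 in the shHDAC5 list (130795549 to 130795917) and 2.39 in the shControl list (130795773 to 130796030). Outside genes the folds were 2.08 in the shHDAC5 list (126282250 to 126282911) and 2.51 in the shControl list (126282613 to 126282870), and 2.14 in the shHDAC5 list (128897107 to 128897439) and 2.45 in the shControl list (128896885 to 128897443). No pair lay in CCDC26 or ASAP1. None lay in MYC, which had no shHDAC5 summit in its span, or in CASC11, which had no shControl summit.

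RNA of MYC, CASC19 and CASC8 was over 10-fold lower in the libraries labelled shHDAC5 than in those labelled shControl, while RNA of PVT1 was close between the labels. Of the 64 annotated genes of the window, 37 were found in the count table by symbol, 25 of these had a count and 10 passed the filter on low counts and were tested. RNA of 8 of the 10 fell, that of 1 rose and 1 was not called, with a median log2 fold change of −1.30. Over all 19181 genes tested, 39.9% were called lower and 44.8% higher, with a median of 0.09, so most genes of this table were called and a call as such sets no gene apart. In 9 of the 10 window genes the 3 libraries of one label did not overlap with those of the other, as in 16272 of the 19181. No label says that the libraries come from separate cultures, so p-values measure the spread between the 6 libraries only, and this may be technical.

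MYC (ENSG00000136997) had 556, 596 and 639 counts in the libraries labelled shHDAC5, against 8719, 7894 and 9304 in those labelled shControl. In CPM, counts per 1000000 scaled counts, its level was 32.9, 34.1 and 35.7 in the libraries labelled shHDAC5, against 561, 552 and 562 in those labelled shControl. The means were 34.2 ± 1.43 CPM in the libraries labelled shHDAC5 and 558 ± 5.67 CPM in those labelled shControl (SD, n = 3 each). MYC was thus 16.3-fold lower in the libraries labelled shHDAC5, and the groups did not overlap. Its log2 fold change of −4.03 (SE 0.0355, adjusted p = 7.39e-108, edgeR) lay between −4.07 and −3.84 under the 12 other settings tried. Per kilobase of counted length, MYC was at 7.47 RPKM in the libraries labelled shHDAC5 and at 122 RPKM in those labelled shControl.

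PVT1 (ENSG00000249859), MYC's neighbour, was lower by a small amount. It had 412, 455 and 480 counts in the libraries labelled shHDAC5 and 458, 461 and 475 in those labelled shControl. The means were 25.7 ± 1.27 CPM in the libraries labelled shHDAC5 and 30.1 ± 1.86 CPM in those labelled shControl (SD, n = 3 each). The highest library labelled shHDAC5, at 26.8 CPM, lay below the lowest labelled shControl, at 28.7. The log2 fold change was −0.22 (SE 0.0698, adjusted p = 0.00244, edgeR). This call rests on the scaling between libraries: with upper-quartile factors it was −0.08 (adjusted p = 0.263) and with total counts −0.04 (adjusted p = 0.603). Those scalings moved the median of all genes to 0.23 and 0.27, against 0.09, and the difference of PVT1 from that median was −0.31 under each of the 3.

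Of the non-coding RNA genes below MYC, 4 were tested, and all 4 were called lower. Over all genes tested, 39.9% were called lower and 44.8% higher. CASC19 (ENSG00000254166), a non-coding RNA gene beside CCAT1, had 410, 478 and 464 counts in the libraries labelled shHDAC5 and 5693, 5076 and 6162 in those labelled shControl. That is 25.8 ± 1.57 CPM in the libraries labelled shHDAC5 against 364 ± 8.82 CPM in those labelled shControl (SD, n = 3 each), a log2 fold change of −3.82 (SE 0.0398, adjusted p = 1.04e-100, edgeR). The counted length of CASC19 is 22219 bases, more than the 9843 bp of its span in the annotation used here, so the authors' gene model holds more than that span, and CCAT1 had no row of its own under that symbol. PCAT1 likewise has a counted length of 18439 bases and a span of 7861 bp. CASC8 had 15, 10 and 13 counts in the libraries labelled shHDAC5 and 171, 161 and 191 in those labelled shControl, a log2 fold change of −3.94 (SE 0.201, adjusted p = 5.24e-36, edgeR). CASC11, next to MYC, had 58, 57 and 53 counts in the libraries labelled shHDAC5 and 175, 164 and 177 in those labelled shControl, with −1.79 (SE 0.144, adjusted p = 9.81e-22, edgeR). PCAT1 was low, at 1.42 ± 0.255 CPM in the libraries labelled shHDAC5 and 2.48 ± 0.313 CPM in those labelled shControl, with −0.81 (adjusted p = 0.00277, edgeR). The sources used here do not give the strand setting of the counting, which bears on the counts of overlapping genes. CASC21, which overlaps CASC8, had no row under that symbol, so its counts could not be set beside those of CASC8.

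Coding genes farther out changed less, apart from GSDMC. GSDMC, at the upper side, had 6, 4 and 6 counts in the libraries labelled shHDAC5 and 35, 31 and 48 in those labelled shControl, a log2 fold change of −2.97 (SE 0.366, adjusted p = 2.28e-12, edgeR). LRATD2, below MYC, was at 18.5 ± 1.47 CPM in the libraries labelled shHDAC5 and 23.1 ± 1.18 CPM in those labelled shControl, with −0.32 (adjusted p = 1.64e-04, edgeR), and was not called with total counts (−0.14, adjusted p = 0.0985). CYRIB was the gene that rose, at 76.9 ± 2.60 CPM in the libraries labelled shHDAC5 and 66.0 ± 1.60 CPM in those labelled shControl, with a log2 fold change of 0.22 (SE 0.0446, adjusted p = 4.18e-06, edgeR). ASAP1 was at 84.4 ± 1.63 CPM in the libraries labelled shHDAC5 and 81.7 ± 3.86 CPM in those labelled shControl, overlapped between the labels and was not called, at a log2 fold change of 0.05 (SE 0.0420, adjusted p = 0.276, edgeR), though 3 other settings called it higher, at 0.13 to 0.23.

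Genes under the filter were few in counts. CCDC26 had 7, 9 and 7 counts in the libraries labelled shHDAC5 and none in those labelled shControl, at least 6.81-fold higher against 3 counts over the group. PRNCR1 had 3, 1 and 1 counts in the libraries labelled shHDAC5 and 12, 4 and 10 in those labelled shControl. POU5F1B, a retrogene of the OCT4 gene POU5F1, had 4, 0 and 1 in the libraries labelled shHDAC5 and 0, 1 and 0 in those labelled shControl. CCAT2 had 0, 2 and 1 and ADCY8 2, 0 and 0 in the libraries labelled shHDAC5, and both had none in those labelled shControl. They were not tested in the main fit. CCDC26 summed to 23 counts in the libraries labelled shHDAC5 and PRNCR1 to 26 in those labelled shControl. The counts of POU5F1B, CCAT2 and ADCY8 are near what 1 or a few reads give. With no filter, 25 genes of the window were tested, and 2 were called higher and 9 lower.

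**Figure D5:**
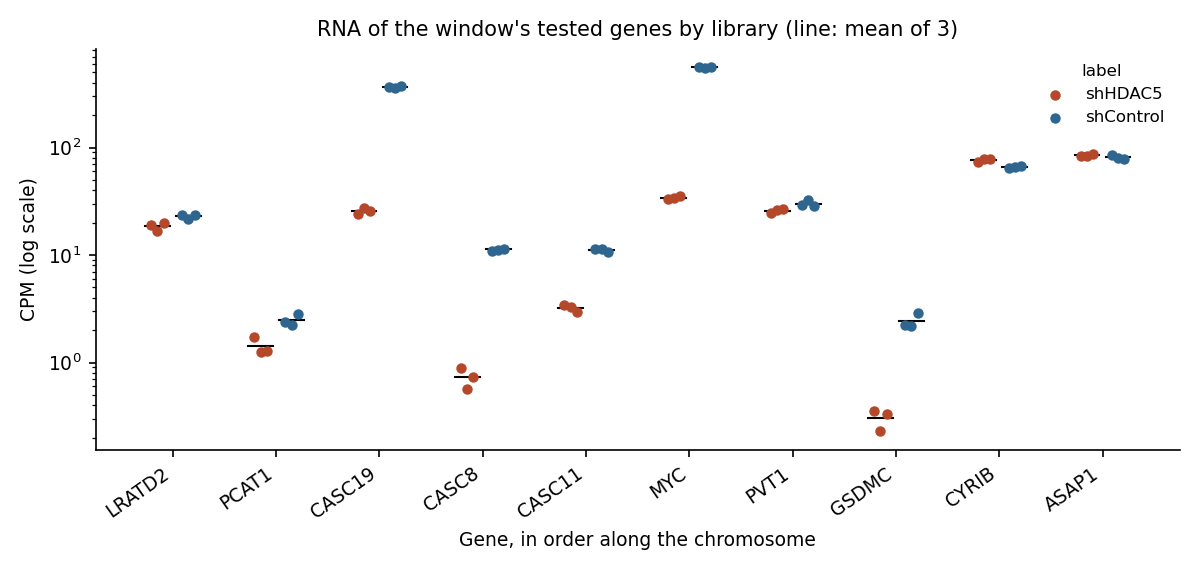
RNA of the 10 tested genes of the window in CPM on a log axis (vertical), in their order along the chromosome (horizontal), with 1 point per library and a line at the mean of 3, libraries labelled shHDAC5 left and those labelled shControl right. CASC19, CASC8 and MYC stand more than 10-fold lower in the libraries labelled shHDAC5, while PVT1, CYRIB and ASAP1 lie close to their values in those labelled shControl.

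Peaks and RNA of the same genes can only be set side by side. MYC had 1 peak in its span in the shControl list and none in the shHDAC5 list, CASC19 2 in each list, CASC8 26 in the shHDAC5 list and 4 in the shControl list, and PVT1 30 in the shHDAC5 list and 22 in the shControl list. No link between peaks and RNA can be drawn from this, since their labels name different cell lines and which cells they represent is unsettled.

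Genes of the partners of the MYC protein were called in both directions, as genes were overall. Of 12 genes of its network, which code for MAX, the partner it needs to bind DNA, for its relatives MYCN and MYCL, and for the MXD, MNT, MGA and MLX proteins that share or oppose it, 11 were tested, 4 were called higher and 5 lower, near the 44.8% and 39.9% over all genes, with a median log2 fold change of −0.00 against 0.09 over all genes. MXD1, which competes with MYC for MAX, was at 80.1 ± 1.61 CPM in the libraries labelled shHDAC5 and 17.3 ± 0.761 CPM in those labelled shControl, with 2.22 (adjusted p = 5.31e-61, edgeR). MXI1, another such competitor, went the other way, at 107 ± 3.24 CPM in the libraries labelled shHDAC5 and 185 ± 2.5 CPM in those labelled shControl, with −0.78 (adjusted p = 6.80e-42, edgeR). MAX was higher, with 0.56 (adjusted p = 3.06e-19, edgeR), and MNT, a repressor in the same network, lower, with −0.77 (adjusted p = 5.10e-29, edgeR).

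Of 20 textbook target genes of MYC, 19 were tested, 14 were called lower and 4 higher, against 39.9% lower and 44.8% higher over all genes, with a median log2 fold change of −0.81 against 0.09 over all genes. SLC7A5, an amino acid transporter gene, was at 275 ± 8.36 CPM in the libraries labelled shHDAC5 and 1399 ± 27.6 CPM in those labelled shControl, with −2.34 (adjusted p = 4.91e-99, edgeR). CDK4, the cell cycle kinase gene, was at 31.4 ± 1.09 CPM in the libraries labelled shHDAC5 and 123 ± 4.2 CPM in those labelled shControl, with −1.97 (adjusted p = 7.87e-66, edgeR), and NPM1, a nucleolar protein gene, at 523 ± 4.58 CPM in the libraries labelled shHDAC5 and 1195 ± 11.2 CPM in those labelled shControl, with −1.19 (adjusted p = 1.12e-73, edgeR). The 4 that were higher were ODC1, HK2, EIF4A1 and EIF4E. ODC1, which codes for the first enzyme of polyamine synthesis, rose to 363 ± 3.78 CPM in the libraries labelled shHDAC5, against 55.4 ± 1.84 CPM in those labelled shControl, with 2.71 (adjusted p = 8.27e-92, edgeR).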

How the data were processed

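The authors deposited whole-number read counts per Ensembl gene for the 6 RNA libraries, and 1 peak list per ChIP condition with a fold enrichment (a ratio) and a −log10 q per peak. Per the submitters' processing notes, MACS2 2.2.7.1, featureCounts 2.0.1, fastp 0.23.2, FastQC 0.11.9 and deepTools 3.5.0 were used with hg38, in roles that are not stated. Aligner, strand setting and any pooling of immunoprecipitations: not given in the sources used here. Samples were grouped by their labels. Library totals were 15935649, 16388744 and 16889876 counts (shHDAC5) and 16530058, 15179758 and 17854340 (shControl).

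Peaks were assigned by summit. Genes came from a RefSeq table of GRCh38.p14, which gives no strand, and matched the count table by symbol, known for 61369 of 61541 IDs. The largest gene or peak coordinate, 145065927, stood for the chromosome's length. Peaks were described with exact Poisson or binomial intervals (95%), with no test. Counts were tested with edgeR 4.0.16 in R 4.3.3 (filterByExpr, TMM, quasi-likelihood test on group, Benjamini-Hochberg adjustment over all genes, threshold 0.05), with standard errors taken from the F statistic as the size of the log2 change divided by its square root. The rest used Python 3.11.15 (scipy 1.17.1, pandas 2.3.3, matplotlib 3.10.9). Both steps were tested on simulated data. Replicates differed by more than sampling noise (chi-square per degree of freedom 1.53 to 2.03).

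Named peaks are the 10 of highest fold per list, those with a q of at most 0.05, those nearest each end of MYC and PVT1, and the overlapping pairs; named genes are those of the window that were tested, known non-coding RNA genes there, and the 2 MYC lists. Members and lists were chosen with earlier results of these data known. Alternatives were other peak thresholds, memberships, overlaps, distances and backgrounds, DESeq2 1.42.0, other scalings and filters, a replicate block and leaving out each library. No sequence is printed, and inputs were not analysed here.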

Additional observations from a re-analysis of the deposited data

How the results depend on the processing

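For peaks per Mb in the window over the rest of chromosome 8, the shHDAC5 ratio of 1.62 became 8.62 at a q of at most 0.05 (4 peaks against 13), 2.95 at a fold of at least 3, 0 at a fold of at least 5 (0 peaks against 2), 1.07 against the 10 Mb on either side and 1.15 against the part above 46 Mb; 3 other settings gave 1.59 to 1.64. The shControl ratio of 0.770 became 1.38, 1.47 and 2.80 (1 peak against 10) at those 3 thresholds, 1.17 against full tiles with a peak and 0.531 above 46 Mb; 3 others gave 0.634 to 0.931. The part above 46 Mb was added after seeing the data. The share of peaks shared between lists fell to 0.406% (shHDAC5) and 2.5% (shControl) with 50% reciprocal overlap and to 0.203% and 1.25% with summits within 100 bp, and was 25% (1 of 4) and 33.3% (1 of 3) at a q of at most 0.05. Within 5 kb of a gene end lay 18.7% of shHDAC5 and 31.2% of shControl summits, and within 1 kb of coding ends 1.22% and 6.25%. The causes were not tested. The RNA count of 8 lower genes ranged from 6 to 9, and that of 1 higher gene was 2 with upper-quartile factors, with total counts, with no filter and with mean log2 CPM of 1 or more. Leaving out each library gave 8 lower and 1 higher each time. The replicate numbers did not pair the samples (r between −0.016 and 0.010), and the replicate block gave 8 lower and 1 higher. Of 119 settings for single genes, 112 kept direction and side of the threshold, 6 changed the call and 1 the sign of an uncalled value; leaving out libraries gave ASAP1 −0.0003 (without shControl replicate 3, adjusted p = 0.996) to 0.07. Depth limits genes under the filter.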
